A study of Mus musculus with 16 samples.

Results

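The 10 genes described here encode the β subunits that form activins (Inhba, Inhbb, Inhbc and Inhbe), the follistatins that bind activins outside the cell (Fst and Fstl3) and the activin receptors (Acvr1b, Acvr1c, Acvr2a and Acvr2b). They were followed through the raw count tables of 16 mice, which list 21959 genes. Inhbc, Inhbe and Fst are known for their expression in liver and were set against the other 7 genes. The 10 genes were chosen by name while results of these data were known: the lower levels of Inhbc, Inhbe and Fst with SB525334 and with the combination had already been seen, so those differences are given below as a description with no test.

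RNA was taken from tumor tissue of male C57BL/6 mice aged 6 weeks at the start, all of which carried liver metastases of MC38, a mouse colon adenocarcinoma cell line that had been injected into the hemispleen. Each of the 4 groups held 4 mice. The control group received PBS, the SB525334 group was given 20 mg/kg of SB525334 by gavage in CMC-Na every day, the KN046 group was injected with 10 mg/kg of KN046 into the peritoneal cavity, and the combination group received both agents. The study names ALK5, the type I receptor of TGF-β, encoded by Tgfbr1, as the target of SB525334. Whether SB525334 also acts on the activin receptors was not tested here. KN046 is a bispecific antibody against PD-L1 and CTLA-4. The labels do not say whether the control or KN046 mice also received the CMC-Na vehicle, and 1 cell line stands for all tumors.

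Activins are dimers of β subunits and belong to the TGF-β superfamily. An activin binds a type II receptor (ACVR2A or ACVR2B), which recruits and phosphorylates a type I receptor (ALK4, encoded by Acvr1b, or ALK7, encoded by Acvr1c). These in turn phosphorylate SMAD2 and SMAD3, the same transducers that TGF-β uses through ALK5. Follistatin wraps around activin and keeps it from its receptors, and FSTL3 is a secreted relative of follistatin. In the liver, hepatocytes are the known source of the βC and βE subunits and of much of the circulating follistatin, while βA and βB are made by many cell types, stromal and tumor cells among them.

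The libraries held 18368994 to 23877131 counts. Levels are given as CPM, which is counts scaled to a common library size, after TMM scaling in edgeR, as mean ± SD of the 4 mice of a group. Tests are edgeR quasi-likelihood tests in 1 fit over the 16 mice, with p adjusted over the 13968 genes that passed the filter on low counts. Of the 10 genes, 9 passed that filter, all 3 liver-expressed ones and 6 of the others. The groups differed in more than the treatments. The 15 hepatocyte marker genes summed to 14589.3 to 17234.1 CPM in control mice, 380.8 to 1872.1 with SB525334, 9182.5 to 18629.5 with KN046 and 13.53 to 21.4 with the combination. The Kupffer cell list had medians of 6.98% of control with SB525334 and 3.79% with the combination, and the list of epithelial carcinoma markers had medians of 26.4% and 7.24%. A list of 4 genes of splenic mesenchyme summed to 4.414 to 11.71 CPM with the combination and to at most 0.3937 CPM in any other mouse. The labels name the tissue as liver metastases in all 4 groups. With KN046, the T cell list had a median of 33.5% of control. Of its 5 tested genes, 4 were called lower and 0 higher, beside 2.4% and 1.6% of all tested genes. In every comparison, KN046 against control included, a difference in the tissue sampled and the treatment itself cannot be told apart. In the control group, mice 1 and 2 resembled each other more closely than usual, and so did mice 3 and 4 (the chi-square of their counts had a median over genes of 1.26 and 0.956, against 2.73 to 17.8 in the other 22 pairs of mice within groups). The labels do not state that each library came from a separate mouse. If these pairs were not separate mice, n = 4 for the control group is too high, and its SD and the tests against control count too many mice.

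Among the 10 genes, the 3 liver-expressed ones were lower with SB525334 and with the combination, and none of the other 6 tested genes passed the test against control. With SB525334 against control, 0 of the 9 genes in the test were called higher and 3 lower, where 0.394% and 9.22% of all tested genes were called. The combination against control gave 0 higher and 3 lower, with backgrounds of 1.37% and 9.74%. The 3 genes were Inhbc, Inhbe and Fst in both, the genes already known to be lower, so nothing is read from those counts. With KN046 against control, 0 genes were called in either direction by edgeR (1 at an unadjusted p under 0.05, and 1 by DESeq2), with backgrounds of 1.6% higher and 2.4% lower. The comparisons with control share the 4 control mice.

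**Figure D1:**
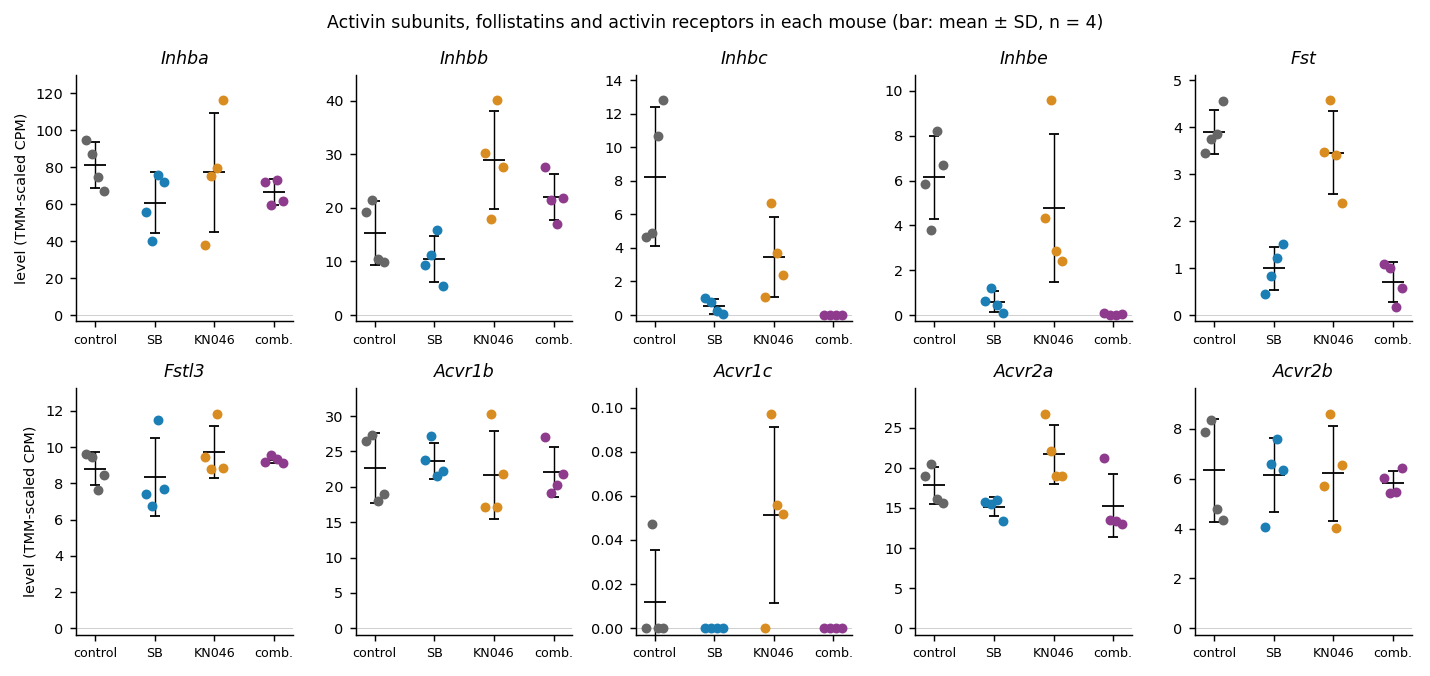
Level of each of the 10 genes in TMM-scaled CPM (vertical axis, linear) in the 4 groups, SB standing for SB525334 and comb. for the combination, with 1 point per mouse and a bar for mean ± SD (n = 4). Inhbc lay at 0 in all 4 combination mice, against 4.64 to 12.8 CPM in control mice, while Acvr1b stayed between 17.2 and 30.3 CPM in all mice.

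Inhbc (ENSMUSG00000025405) and Inhbe (ENSMUSG00000047492), which encode the βC and βE subunits, are neighbours on the minus strand of chromosome 10 in GRCm39. Inhbc spans 127190888 to 127206430 and Inhbe spans 127184726 to 127190280, which leaves 607 bases between them. Fst (ENSMUSG00000021765), which encodes follistatin, lies on the minus strand of chromosome 13, from 114588731 to 114595521. The promoters of these 3 genes are shown because their levels moved together in some groups and came apart in others. Each is the 300 bases from 250 before to 50 after the start of the canonical transcript in GENCODE M39, on the minus strand of GRCm39, written 5′ to 3′. Capitals mark the letters CAAAG (the core of sites for HNF4, a nuclear receptor of hepatocytes) and GTCTG (the SMAD box), on either strand, so that they can also read CTTTG and CAGAC.
Inhbc, chr10:127206381-127206680: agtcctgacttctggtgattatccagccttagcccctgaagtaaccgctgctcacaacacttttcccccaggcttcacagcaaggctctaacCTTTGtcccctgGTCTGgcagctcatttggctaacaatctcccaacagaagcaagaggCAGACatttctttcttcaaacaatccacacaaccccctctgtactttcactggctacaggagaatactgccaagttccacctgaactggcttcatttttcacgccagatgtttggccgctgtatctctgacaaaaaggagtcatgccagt
Inhbe, chr10:127190231-127190530: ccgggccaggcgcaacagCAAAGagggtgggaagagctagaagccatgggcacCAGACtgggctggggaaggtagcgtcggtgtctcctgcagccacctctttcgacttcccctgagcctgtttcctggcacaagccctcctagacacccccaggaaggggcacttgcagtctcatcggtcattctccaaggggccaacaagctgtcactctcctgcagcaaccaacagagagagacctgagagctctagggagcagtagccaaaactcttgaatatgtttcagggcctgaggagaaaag
Fst, chr13:114595472-114595771: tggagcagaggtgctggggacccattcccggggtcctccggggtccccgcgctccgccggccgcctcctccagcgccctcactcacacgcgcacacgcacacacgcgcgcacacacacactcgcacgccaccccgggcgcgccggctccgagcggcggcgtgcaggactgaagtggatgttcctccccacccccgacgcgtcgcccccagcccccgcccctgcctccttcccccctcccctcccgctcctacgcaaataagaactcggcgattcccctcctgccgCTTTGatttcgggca

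Counted with the first transcribed base as 0, CAAAG began at -158 in the Inhbc promoter, at -232 in that of Inhbe and at 35 in that of Fst. GTCTG began at -146 and -100 in the Inhbc promoter and at -197 in that of Inhbe, and was not among the letters of the Fst window. Both words are common: 54.3% of 21770 promoters of the same length held CAAAG and 48.4% held GTCTG. A longer HNF4 site that contains the core, CAAAGTCCA, was in 0.45% of promoters and in none of the 3. Also in none of the 3 were an HNF1 word (GTTAAT, 6.92% of promoters), a FOXA core (TGTTTAC, 3.16%), a C/EBP palindrome (TTGCNNCAA, 2.2%), a C/EBP-ATF composite (TGATGNAA, 3.85%), a SMAD palindrome (GTCTAGAC, 0.266%) and the TATA box (TATAAA, 13.3%). These matches describe letters only, and nothing about binding follows from them.

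Inhbc had 4.64, 4.88, 10.7 and 12.8 CPM in control mice 1 to 4, a mean of 8.25 ± 4.13 (SD, n = 4). The values with SB525334 were 1.04, 0.756, 0.215 and 0.0431 CPM, from 23, 19, 5 and 1 counts. No SB525334 mouse reached the lowest control mouse, and the group mean was 6.22% of control (log2 fold change -3.99, standard error 0.70). With the combination, the 4 mice held 0 counts of Inhbc. A floor of 3 counts per library, which is 0.156 CPM on average, put the combination at least 53.1-fold lower than control and at least 22.2-fold lower than KN046. Floors and counting intervals here cover counting error only. With KN046 alone, Inhbc had 1.07, 6.66, 3.69 and 2.39 CPM. The KN046 values overlapped the control values, and the difference was not past the threshold (41.8% of control, log2 fold change -1.25, 95% interval -2.54 to 0.03, adjusted p = 0.228).

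Inhbe had 5.86, 3.79, 8.22 and 6.69 CPM in control mice, a mean of 6.14 ± 1.85 (SD, n = 4). With SB525334 it had 0.633, 1.19, 0.430 and 0.0862 CPM, from 14, 30, 10 and 2 counts. All 4 values lay below the control range, at 9.55% of control on average (log2 fold change -3.36, standard error 0.57). The combination mice held 2, 0, 0 and 1 counts. Against the 504 counts of the control group this was a ratio of 156-fold lower, with a 95% counting interval of 53.2 to 761. Against KN046 the ratio was 126-fold, with an interval of 42.8 to 614. With KN046 alone, Inhbe had 4.32, 9.58, 2.85 and 2.39 CPM. These mice lay on both sides of the control values, and no difference passed the test (77.9% of control, log2 fold change -0.36, 95% interval -1.39 to 0.68, adjusted p = 0.698).

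Fst had 3.46, 3.74, 3.86 and 4.55 CPM in control mice, the narrowest spread of the 3 genes relative to its mean (3.90 ± 0.463, SD, n = 4). With SB525334 the values were 0.452, 0.836, 1.21 and 1.51 CPM, and with the combination 1.08, 0.993, 0.164 and 0.566 CPM. Neither group overlapped the control mice. Fst stood at 25.7% of control with SB525334 (log2 fold change -1.95, standard error 0.41) and at 17.96% with the combination (log2 fold change -2.47, standard error 0.43), and the combination was 2.30 below KN046 on the log2 scale (log2 fold change -2.30, standard error 0.43). KN046 mice had 3.46, 4.57, 3.41 and 2.39 CPM, around the control level (log2 fold change -0.17, 95% interval -0.98 to 0.63, adjusted p = 0.824).

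Between the SB525334 and combination groups, counts of Inhbc and Inhbe were low in all 8 mice. Both genes passed the filter only through the control and KN046 mice, where they were high, and in a fit of the SB525334 and combination mice alone they did not pass it, so 0 genes were called. The values that follow are from the fit over all groups, and nothing is read from the calls of Inhbc and Inhbe in it. Against SB525334, Inhbe with the combination was 15.4-fold lower in counts (95% counting interval 5 to 76.8, adjusted p = 0.0313 in edgeR), although 1 SB525334 mouse and 1 combination mouse overlapped in CPM. Inhbc was at least 3.3-fold lower and missed the threshold (adjusted p = 0.0523 in edgeR). The groups did not overlap for Inhbc, but SB525334 mouse 4 held 1 count, under the floor of 3 counts, against 0 in the combination mice. Fst did not pass the test (log2 fold change -0.51, 95% interval -1.43 to 0.41, adjusted p = 0.905). In all, 1 of the 9 genes was called lower and 0 higher in that comparison, where 3.03% and 0.544% of all tested genes were. The Inhbe call was lost without SB525334 mouse 1 or 2 and without combination mouse 2, 3 or 4, where 0 genes were called. Inhbc was called too in edgeR without SB525334 mouse 3 or 4, and without KN046 mouse 1 or 2. The interaction asks whether the SB525334 difference was the same with and without KN046. Its adjusted p in edgeR was 0.195 for Inhbc, 0.103 for Inhbe and 0.806 for Fst. The lower levels that enter it were already known for these 3 genes, so nothing is read from these values. No gene was called for the interaction in edgeR (0 of 9, 2 at an unadjusted p under 0.05, and 2 by DESeq2), with backgrounds of 1.73% higher and 2.55% lower. Inhbe was called without SB525334 mouse 4.

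Hepatocyte markers moved with the same groups. All 15 were called lower with SB525334 and with the combination, and 0 of 15 with KN046. The median of the list was 8.01% of control in SB525334 mice, 83.9% in KN046 mice and 0.11% in combination mice, and all 15 were also called lower in the combination against SB525334. Alb, which encodes albumin, averaged 8185.5 CPM in control mice, 535 CPM in SB525334 mice, 8342.4 CPM in KN046 mice and 9.52 CPM in combination mice. Apoa1 and Apoa2, which encode apolipoproteins of high-density lipoprotein, averaged 1679.4 and 345.5 CPM in control and 1.40 and 0.642 CPM with the combination. None of the 15 was at 0 in a whole group, and Hnf4a had counts in 1 of the 4 combination mice. In bulk tissue, fewer cells of a type and less RNA per cell cannot be told apart, and the part that the hepatocyte share had in the levels of Inhbc, Inhbe and Fst was not tested.

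Mouse by mouse, Inhbc and Inhbe followed the hepatocyte level among the SB525334 mice more closely than Fst did, as a description of 4 mice. The 4 SB525334 mice had median hepatocyte levels of 8.56%, 12.3%, 8.02% and 2.33% of control, and Inhbe in the same mice was at 10.3%, 19.5%, 7.01% and 1.40% of its control mean. Inhbc was at 12.6%, 9.16%, 2.61% and 0.522%, so that both genes were lowest in mouse 4. Fst in those mice was at 11.6%, 21.4%, 30.9% and 38.7% of its control mean, highest in mouse 4. In the combination mice, with hepatocyte markers at 0.0886% to 0.126% of control, Fst was at 27.7%, 25.5%, 4.2% and 14.5%. These Fst values stood above the hepatocyte markers in every combination mouse. In KN046 mouse 1, where the hepatocyte level was 43.8%, Inhbc had its lowest value of that group, while Inhbe and Fst did not.

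**Figure D2:**
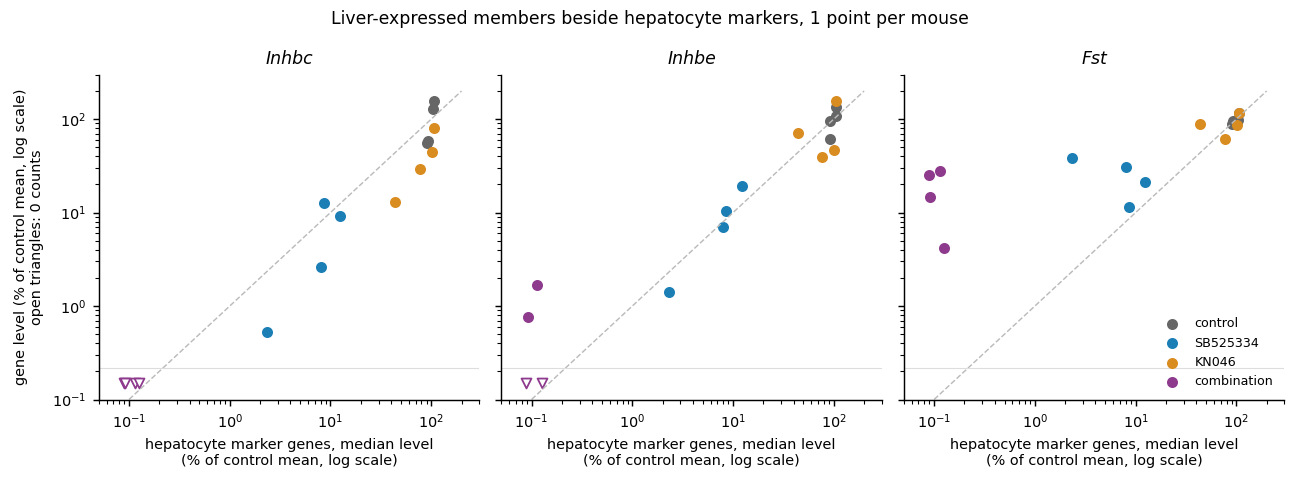
Level of Inhbc, Inhbe and Fst (vertical axis, % of the control mean, log scale) against the median level of 15 hepatocyte markers (horizontal axis, % of the control mean, log scale), 1 point per mouse, with open triangles for mice at 0 counts and a dashed line where both are equal. Inhbc and Inhbe were lowest in SB525334 mouse 4, which also had the lowest hepatocyte level of its group, whereas Fst stood at 4.2% to 27.7% in combination mice whose hepatocyte markers were near 0.11%.

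Over the 16 mice, as a description of points that share groups and libraries, the log2 levels of Inhbc and Inhbe had a Pearson r of 0.94, Inhbe and Fst 0.91, and Inhbc and Fst 0.85. The genes of most similar pattern, among 12819 tested genes with a mean of at least 1 CPM, were Pdzk1 (r = 0.985), Urah (0.981) and Akr1c20 (0.981) for Inhbc. For Inhbe they were Gm4952 (r = 0.987), Ugt2b35 (0.980) and Sntb1 (0.978). For Fst they were Gclc (r = 0.955), which encodes the catalytic subunit of the first enzyme of glutathione synthesis, Tmem38b (0.946) and Fabp2 (0.945).

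The other subunits, βA and βB, stayed present in every mouse. Inhba (ENSMUSG00000041324, plus strand of chromosome 13, 16186373 to 16206206), which encodes the subunit of activin A, had 95.0, 87.5, 74.7 and 67.3 CPM in control mice (81.1 ± 12.5, SD, n = 4). It had 55.9, 40.1, 75.8 and 71.9 CPM with SB525334, and 72.3, 59.4, 72.9 and 62.0 CPM with the combination. KN046 gave the widest spread, with 37.7, 75.4, 79.8 and 116.3 CPM. All groups overlapped. The log2 fold changes against control were -0.41 with SB525334 (95% interval -0.93 to 0.11, adjusted p = 0.413), -0.07 with KN046 (-0.59 to 0.45, adjusted p = 0.893) and -0.28 with the combination (-0.81 to 0.24, adjusted p = 0.549). Il11, which encodes a cytokine of the IL-6 family, had the pattern most like that of Inhba (r = 0.865), followed by Ezh2 (0.806) and Noct (0.781).

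Inhbb (ENSMUSG00000037035, minus strand of chromosome 1, 119343193 to 119350021), which encodes the subunit of activin B, had its higher means in the groups that received KN046. It had 19.3, 21.4, 10.5 and 9.93 CPM in control mice, 9.36, 11.2, 15.9 and 5.47 with SB525334, 30.2, 17.8, 40.1 and 27.5 with KN046 and 27.6, 21.5, 17.0 and 21.9 with the combination. KN046 mouse 2 fell within the control range and the other 3 lay above it. The log2 fold change of KN046 against control was 0.92 (standard error 0.31, 95% interval 0.27 to 1.57), which missed the threshold after adjustment (adjusted p = 0.0927 in edgeR). It passed without KN046 mouse 2 (1.10, adjusted p = 0.0267) and in DESeq2 (adjusted p = 0.0360). In the remaining 21 of the 23 alternatives that give an adjusted p it was not past the threshold, with an adjusted p of up to 0.337, nor was it under the study's thresholds.

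The combination and SB525334 groups did not overlap for Inhbb, with 17.0 to 27.6 CPM against 5.47 to 15.9. That difference was 1.07 on the log2 scale (standard error 0.31, 95% interval 0.41 to 1.73, adjusted p = 0.0791) and passed without SB525334 mouse 3 (1.35, adjusted p = 0.0246) and in DESeq2 (adjusted p = 0.0181). Inhbb showed log2 fold changes against control of -0.54 with SB525334 (95% interval -1.20 to 0.12, adjusted p = 0.389) and 0.53 with the combination (-0.13 to 1.18, adjusted p = 0.340). Its interaction was 0.15 (95% interval -0.77 to 1.07, adjusted p = 0.894). Hepatic stellate markers, another liver cell type, had a median of 195% of control with KN046 and 4.41% with the combination, with 0 of 7 tested markers called in the first and 6 called lower in the second. Their summed level was 805.6 to 883.7 CPM in control, 849.5 to 932.3 with SB525334, 768.1 to 1354.4 with KN046 and 868.4 to 898.5 with the combination, none was at 0 in a whole group, and their part in the Inhbb levels was not tested. The genes most like Inhbb were Trp53i11 (r = 0.908), Abcc9 (0.902) and Ednrb (0.896), the last of which encodes the endothelin B receptor.

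**Figure D3:**
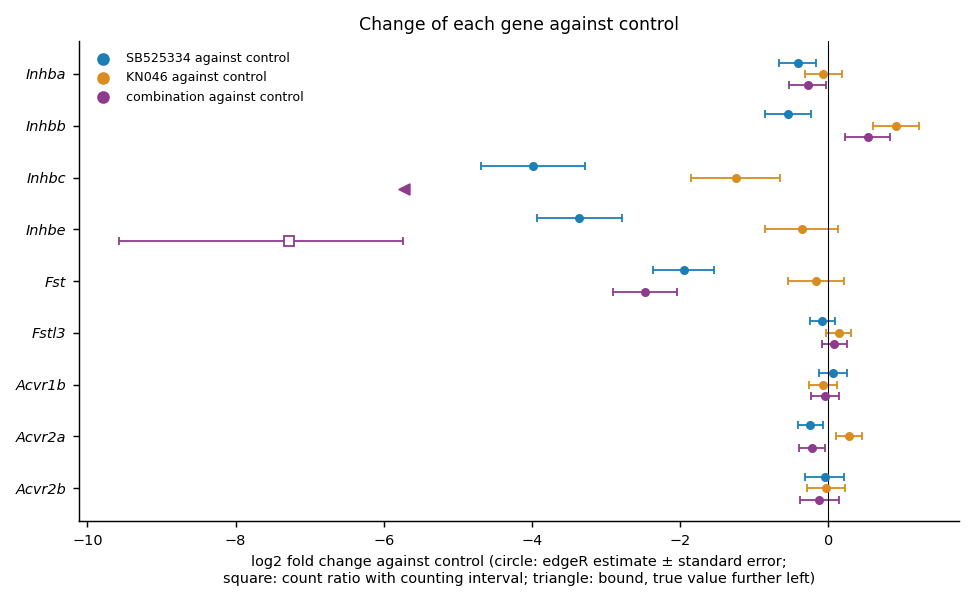
Log2 fold change (horizontal axis) of the 9 tested genes against control for SB525334, KN046 and the combination, as edgeR estimates with standard errors (circles), a ratio of counts with its 95% counting interval (square, Inhbe) and a bound (triangle, Inhbc). Inhbc, Inhbe and Fst sit far left of 0 with SB525334 and the combination, and the 6 other genes lie between -0.54 and 0.92 in the 3 comparisons.

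The other follistatin gene did not follow Fst. Fstl3 (ENSMUSG00000020325, plus strand of chromosome 10, 79613096 to 79618464) had 9.62, 9.47, 7.66 and 8.47 CPM in control mice, 7.41, 6.77, 11.49 and 7.71 with SB525334, 9.43, 8.80, 11.9 and 8.83 with KN046 and 9.19, 9.55, 9.33 and 9.14 with the combination. The combination mice were the most alike, with an SD of 0.180 CPM. Its log2 fold changes against control were -0.08 with SB525334 (95% interval -0.44 to 0.29), 0.14 with KN046 (-0.22 to 0.51) and 0.08 with the combination (-0.29 to 0.45), with adjusted p of 0.876, 0.655 and 0.830. The r between Fstl3 and Fst over the 16 mice was 0.17, against 0.70 between Fstl3 and Inhbb. The genes most like Fstl3 were Fosb (r = 0.844), Cxcl2 (0.841) and Ier3 (0.837), of which Fosb is a known immediate early gene.

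Among the receptors, the type I receptor genes differed widely in their counts. Acvr1b (ENSMUSG00000000532, plus strand of chromosome 15, 101071921 to 101111565), which encodes ALK4, had 22.7 ± 4.88 CPM in control, 23.6 ± 2.55 in SB525334 mice, 21.6 ± 6.22 in KN046 mice and 22.1 ± 3.51 in combination mice (SD, n = 4 each). Its log2 fold changes against control were 0.06 (95% interval -0.34 to 0.46), -0.07 (-0.46 to 0.33) and -0.04 (-0.44 to 0.36), with adjusted p of 0.914, 0.862 and 0.930. Acvr1c (ENSMUSG00000026834, minus strand of chromosome 2, 58157465 to 58247925), which encodes ALK7, had 5 counts over the 16 mice, 1 in control mouse 2 and 2, 1 and 1 in KN046 mice 2, 3 and 4. It failed the filter on low counts and was not tested, and a difference between groups was not detectable at this depth. The genes most like Acvr1b were Akna (r = 0.928), Amer1 (0.927) and Ttf1 (0.924).

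Of the type II receptors, Acvr2a passed 1 test. Acvr2a (ENSMUSG00000052155, plus strand of chromosome 2, 48703743 to 48793283) had 19.03, 20.5, 16.1 and 15.6 CPM in control mice, 15.7, 15.5, 16.01 and 13.4 with SB525334, 26.8, 22.1, 18.9 and 19.02 with KN046 and 21.3, 13.5, 13.4 and 13.1 with the combination. Combination mouse 1 lay inside the KN046 range and the other 3 combination mice lay below it. Acvr2a was lower in the combination than in KN046, by a log2 fold change of -0.50 (standard error 0.17, 95% interval -0.86 to -0.15, adjusted p = 0.038 in edgeR). With Inhbc, Inhbe and Fst that made 4 genes called lower and 0 higher in the combination against KN046, where 14.5% and 9.89% of all tested genes were called. The lower levels of those 3 genes were already known when the genes were chosen, so nothing is read from the count. The Acvr2a call was kept in 16 of the 23 alternatives that give an adjusted p. It was lost with the control pairs summed (adjusted p = 0.0514), with the 2 groups alone (0.1005) and under the study's thresholds, which ask for a fold over 2. It was also lost without KN046 mouse 1 (adjusted p = 0.135), SB525334 mouse 1 (0.0517), or combination mouse 2 (0.113), 3 (0.114) or 4 (0.115). Against control, Acvr2a had log2 fold changes of -0.24 with SB525334 (95% interval -0.59 to 0.12, adjusted p = 0.519), 0.28 with KN046 (-0.07 to 0.64, adjusted p = 0.317) and -0.22 with the combination (-0.57 to 0.13, adjusted p = 0.483). Ktn1 (r = 0.954), Clcf1 (0.947) and Cep295 (0.944) had the patterns most like it.

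Acvr2b (ENSMUSG00000061393, plus strand of chromosome 9, 119231103 to 119271213) encodes the second activin type II receptor and had 6.33 ± 2.07 CPM in control, 6.14 ± 1.48 in SB525334 mice, 6.22 ± 1.91 in KN046 mice and 5.82 ± 0.478 in combination mice (SD, n = 4 each). All groups overlapped, and the log2 fold changes against control were -0.05 (95% interval -0.60 to 0.51), -0.03 (-0.58 to 0.53) and -0.12 (-0.68 to 0.43), with adjusted p of 0.957, 0.965 and 0.827. Within the control group, the alike mice 1 and 2 had 7.87 and 8.33 CPM of Acvr2b and mice 3 and 4 had 4.77 and 4.34. The same mice 1 and 2 were the higher ones for Inhba, Inhbb, Fstl3, Acvr1b and Acvr2a, and mice 3 and 4 for Inhbc, Inhbe and Fst, so that the pairs did not overlap for any of the 9 tested genes. The share of all tested genes with such pairs was not counted. Between the pairs, the median chi-square over all tested genes was 8.44 to 9.19, so the split is not read as a trait of these genes. The genes most like Acvr2b were Rnf44 (r = 0.860), Zfp729a (0.83) and Aspm (0.797).

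Per kilobase of exon, which allows levels of different genes to be compared, Inhba had the highest mean in every group, overlapping the next gene with SB525334 (Acvr1b) and with KN046 (Inhbb) but not in control or with the combination. In control mice it had 11.4 ± 1.75 CPM per kilobase. Acvr1b (4.77), Fstl3 (3.59), Inhbb (3.55), Inhbc (2.51) and Acvr2a (1.77) followed, each overlapping its neighbour in the order. Inhbe (1.15), Fst (0.826) and Acvr2b (0.566) came below Acvr2a, where Acvr2a and Inhbe did not overlap and the other neighbours did, and Acvr1c was last. With the longest transcript in place of all exons, the control level of Fst became 1.32 and that of Fstl3 4.48 CPM per kilobase. With KN046 and with the combination Inhbb stood second, at 6.73 and 5.12 CPM per kilobase, overlapping Acvr1b in both. The combination mice ordered Fst (0.148) below Acvr2b (0.520) with no overlap, and Inhbe, Acvr1c and Inhbc came last.

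**Figure D4:**
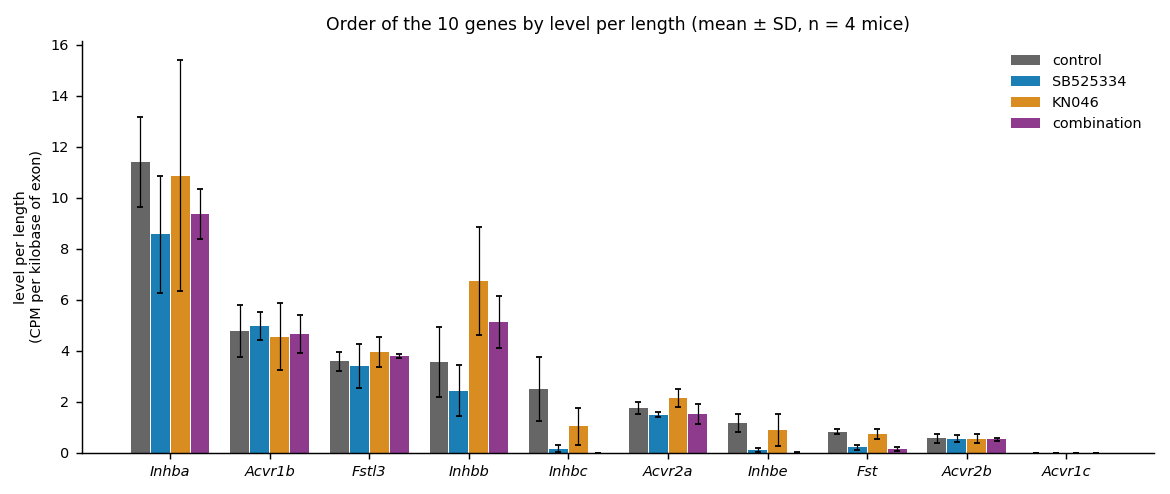
Level of each gene per length (vertical axis, CPM per kilobase of exon, from 0) in the 4 groups, as bars with SD (n = 4 mice), ordered by the control level. Inhba had the highest mean in each group, from 8.57 with SB525334 to 11.4 CPM per kilobase in control, and Acvr1c was near 0 throughout.

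The other genes of the pathway were read from a list of 44 genes (ligands, co-receptors and antagonists, receptors, SMADs and their regulators, and SMAD2/3 target genes), of which 34 passed the filter. Against control, their median log2 fold change came to 0.04 for SB525334, 0.09 for KN046 and -0.01 for the combination, beside 0.001, -0.026 and 0.013 for all tested genes. With SB525334, 1 of the 34 was called lower and 0 higher, beside 9.22% and 0.394% of all tested genes. It was Smad7, which encodes an inhibitory SMAD and is itself a known target of SMAD signaling (55.3 ± 1.61 CPM in control, 37.9 ± 5.15 with SB525334, SD, n = 4 each, log2 fold change -0.55, adjusted p = 0.0295). That call was lost when any 1 control mouse, SB525334 mouse 1 or 2 or combination mouse 1 was left out (adjusted p 0.0544 to 0.115), and when the alike control pairs were each summed (adjusted p = 0.153). The combination had 2 called lower and 0 higher, beside 9.74% and 1.37% of all tested genes. They were Smad6, which encodes the other inhibitory SMAD (log2 fold change -0.93, adjusted p = 0.00259), and Smad7 (-0.49, adjusted p = 0.0484). In the combination against control, Smad6 was called in all 23 alternatives that give an adjusted p and not under the study's thresholds, where its fold was too small. Smad7 was called in 6 of those 23. Its call was lost without any 1 control, SB525334 or combination mouse or KN046 mouse 4 (adjusted p 0.0533 to 0.119), with the control pairs summed (0.208), and with RLE size factors (0.0584), no filter (0.0517) or the replicate block (0.0538). With KN046, 0 of the 34 were called, beside 1.6% higher and 2.4% lower of all tested genes (9 at an unadjusted p under 0.05, 6 by DESeq2, and 7 without KN046 mouse 2).

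Against KN046, the combination had 3 pathway genes called higher and 7 lower of 34, beside 9.89% and 14.5% of all tested genes, shares not far from those of the list. The following were chosen after their values were seen. The lower genes took in Wfikkn1, a secreted antagonist of myostatin (log2 fold change -2.27, adjusted p = 0.00185), the co-receptor genes Tgfbr3 (-1.03, adjusted p = 0.0246) and Tgfbr3l (-1.36, adjusted p = 0.0157), and the SMAD2/3 target gene Ccn2 (-1.43, adjusted p = 0.00356), beside Smad6 (-0.81) and Smad7 (-0.44), the last of which was called in 4 of the 23 alternatives that give an adjusted p. The higher ones were Tgfb1 (0.38, adjusted p = 0.00426), the type I receptor gene Acvrl1 (0.67, adjusted p = 0.0305) and Pmepa1 (0.68, adjusted p = 0.0468), a SMAD target and regulator. The count was 5 or 6 without KN046 mouse 1 or 3 or without combination mouse 2, 3 or 4. In the combination against SB525334 and in the interaction, 0 of the 34 genes were called in edgeR (1 and 5 at an unadjusted p under 0.05, and 1 and 2 by DESeq2). Of all tested genes, 0.544% were called higher and 3.03% lower in the first, and 1.73% and 2.55% in the second. Among the 34, the first count was 1 without KN046 mouse 3 or combination mouse 1. The second was 3 without KN046 mouse 2 and 2 without combination mouse 1. Tgfbr1, the gene of the target that the study names for the inhibitor, had 77.0 ± 11.3 CPM in control and 79.9 ± 8.89 with SB525334.

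**Figure D5:**
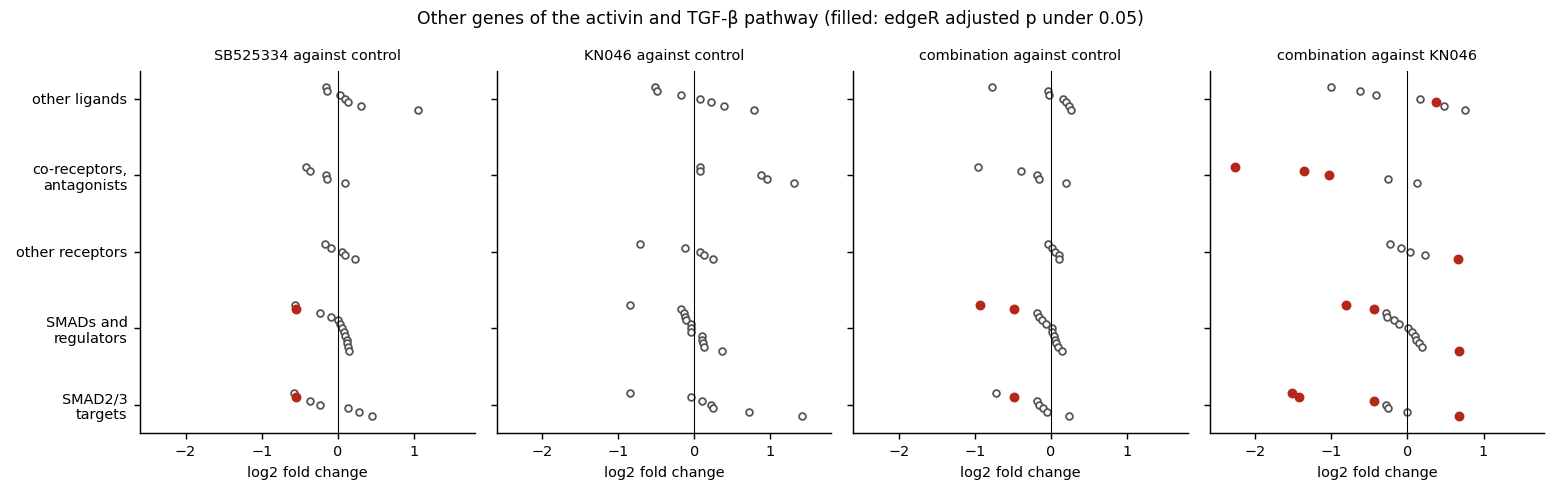
Log2 fold change (horizontal axis) of the 34 tested pathway genes in 4 comparisons, with 1 point per gene and list, grouped by role, where filled points passed an edgeR adjusted p of 0.05 and Smad7, Skil and Pmepa1 stand in 2 lists. Most points lie near 0 against control, and the comparison of the combination with KN046 has 10 genes called.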

How the data were processed

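RNA-seq of tumor tissue from 16 mice (4 per group) was analysed. Per the labels and the study's methods, the authors used cutadapt 2.7 for trimming, HISAT2 2.2.1 for alignment to GRCm39 and HTSeq 2.0.4 for counting, and deposited raw counts per gene. Settings for strand and multimapped reads are not given in the sources used here, so reads from overlapping genes cannot be told apart. The deposited normalized counts were not used.

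Raw counts were tested with edgeR 4.0.16 in R 4.3.3 (scaling by TMM, genes kept by filterByExpr at a minimum count of 10, quasi-likelihood fit over the 4 groups, Benjamini-Hochberg adjustment over 13968 genes, threshold 0.05), and the script was checked on simulated data. The common biological coefficient of variation was 20.1%. Intervals of fold changes come from the same fit. Fitted fold changes of Inhbc and Inhbe in comparisons with the combination, where nearly all counts were 0, were replaced by a floor of 3 counts per library or a ratio of summed counts with an exact 95% interval. Likeness of pattern was Pearson's r of log2(CPM + 1). Genes, coordinates and exons came from GENCODE M39 (21770 of 21959 identifiers matched), and promoters from GRCm39.

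The genes, the pathway and marker lists and the tests were chosen with earlier results of these data known, and p-values were adjusted over all tested genes and never over the list. The genes named were the 10 members, the 3 genes most like each, pathway genes called against control and the first 3 hepatocyte markers. Genes outside that rule are marked as chosen after their values were seen, and Hnf4a and Tgfbr1 were also named outside it. The labels number the libraries of a group without stating that each came from a separate mouse, so p-values measure the spread between these libraries. Alternatives were DESeq2 1.42.0, the study's thresholds (unadjusted p under 0.05 and fold over 2), other scaling, other filters, a replicate block, summed control pairs, 2 groups alone, and each mouse left out. Of the pathway genes counted, 1 is not reported here by name.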

Additional observations from a re-analysis of the deposited data

Results flagged for a closer look

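Among 37 sets of 4 mice (1 gene in 1 group), 2 had a mouse farther from the other 3 than a 95% limit on gaps allows, and chance gives 1.85 in that many. Acvr2a had 21.26 CPM in combination mouse 1, against 13.06 to 13.52 CPM in the other combination mice. Acvr1c had 0.04733 CPM in control mouse 2, which is 1 count, against 0 in the other control mice.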

How the results depend on the processing

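Over the comparisons where edgeR gave a usable estimate, the 46 log2 fold changes of the genes were computed again under the alternatives, giving 1097 values, of which 1082 kept their direction and side of the threshold or moved by less than the spread. Of the rest, 8 lost the call, all for Acvr2a in the combination against KN046 (7 by adjusted p and 1 under the study's thresholds), 5 gained it, all for Inhbb, 2 moved further and 0 reversed a call. Scaling by RLE shifted the median of all genes by less than 0.1 on the log2 scale.

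With KN046 against control, 0 genes were called, against 1 with DESeq2, and 0 to 1 with each mouse left out. For the combination against SB525334, 1 was called, against 2 with RLE size factors, 2 with no filter, 0 with the 2 groups alone (where Inhbc and Inhbe did not pass the filter), 3 with DESeq2, 3 with the study's thresholds and 0 to 3 with each mouse left out. The interaction had 0 called, 2 with DESeq2, 2 with the study's thresholds and 0 to 1 with each mouse left out. The cause of the other differences was not tested. The counts of 3 genes with SB525334 against control and with the combination against control did not change under the alternatives run. The count of 4 in the combination against KN046 fell to 3 wherever Acvr2a lost its call. The other genes in these counts were Inhbc, Inhbe and Fst, already known to be lower, so nothing is read from their stability.

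Pathway genes called with SB525334 numbered 0 to 5 over the alternatives (1 in the fit reported, 5 with the 2 groups alone, 4 with DESeq2), with KN046 0 to 7, with the combination 0 to 2, and in the combination against KN046 5 to 11. Of the 3 genes most like each, 1 was shared for Inhbc, Inhbe and Fst with a pseudocount of 0.1. With Spearman's rho, 1 was shared for Inhbb, Inhbe, Fst and Acvr1b, and 0 for Inhbc.

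Mice with the same number did not come out as pairs: 7 of 24 same-number correlations were over 0.1 (-0.367 to 0.404) and 6 of 16 mice correlated best with their own number. With the replicate number as a replicate block the calls among the genes numbered 3, 0, 3, 4, 1 and 0 in the 6 comparisons, as without it.

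Low counts limit Inhbc, Inhbe, Fst and Acvr1c, where a mouse can hold 0 to 3 counts.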
